A study of Rattus norvegicus with 8 samples.

Results

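The 24 h response of Schwann cells to S100A8/A9 was set against the 1 h response, with 1 array for each time, 2 of the 8 arrays in the series. Both were chosen by the headings of the authors' deposited table of log2 values, and a difference below is the 24 h value minus the 1 h value of the same gene. All cultures were primary Schwann cells from sciatic nerves of newborn Sprague-Dawley rats, purified with AraC and an antibody against Thy1.1 with complement, and grown with serum, bovine pituitary extract and forskolin, which raises cyclic AMP. The stimulated cultures received S100A8/A9 at 5 µg/ml for 24 h or for 1 h, and another array held cells cultured for 24 h without it. No unstimulated culture of 1 h was analysed here, so in a difference that involves the 1 h array the stimulation and the hours in culture cannot be told apart. With 1 array per group no difference has a replicate check or a p-value, and errors after ± are technical, from replicate spots of a probe on an array.

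S100A8 and S100A9 are calcium-binding proteins that neutrophils and monocytes carry in large amounts and release at sites of injury. As a complex they signal through the toll-like receptor TLR4 and the receptor RAGE, encoded by Ager, and activate NF-kB and MAP kinase pathways in target cells. Schwann cells ensheath peripheral axons, make myelin, and after nerve injury divide and recruit macrophages by secreting chemokines such as CCL2.

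The share of the 30367 probes above background ran over 65.1% to 67.4% on the 3 Schwann cell arrays and was smallest at 1 h. All 8 arrays lay on 1 slide. For 7 of the 8 samples the scan that ranks as the column does was filed under another sample, so each direction below rests on the column headings being right. Over 24894 probes the 24 h array ranked most like the unstimulated array (Spearman rho 0.993) and less like the 1 h array (0.989), and the 1 h and unstimulated arrays stood at 0.991. All 16 Schwann cell markers with a probe, among them Sox10, S100b and Erbb3, were above background on all 3 arrays, while the macrophage genes Itgam, Cd163, Mrc1, Msr1, Ptprc, Fcgr3a and C1qa were not above background on any of them. Of the 19 macrophage markers, 10 were above background at 24 h, 10 at 1 h and 11 in unstimulated cells, C1qb, Cx3cr1, Aif1, Cd68, Csf1r and Tyrobp among them. By presence above background these markers do not tell the 3 cultures apart. In level the Schwann cell markers did differ, with a summed log2 level of 182.8 at 24 h, 175.6 at 1 h and 181.3 in unstimulated cells. Of these 16 markers, 3 were at least 2-fold higher at 24 h than at 1 h and none lower, against 1.51% and 1.68% of all genes. The median difference of the list was 0.53.

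The genes furthest from the unstimulated culture at 1 h and back near it at 24 h are shown first by their promoters, since they include the genes that moved furthest between the times. In order of their 1 h difference these were Liph, Ccl2, Entpd2, Mfap5, Cxcl1 and Hmga2. The 5 sequences are those in the RefSeq promoter table used here, from 250 bases before to 50 bases after the annotated start, read 5′ to 3′ on the gene's strand, in build GRCr8. Capitals mark matches to the CRE (TGACGTCA), the AP-1 site (TGANTCA), the NF-kB site, the CArG box and the TATA box (TATAAA), searched on both strands.
Liph: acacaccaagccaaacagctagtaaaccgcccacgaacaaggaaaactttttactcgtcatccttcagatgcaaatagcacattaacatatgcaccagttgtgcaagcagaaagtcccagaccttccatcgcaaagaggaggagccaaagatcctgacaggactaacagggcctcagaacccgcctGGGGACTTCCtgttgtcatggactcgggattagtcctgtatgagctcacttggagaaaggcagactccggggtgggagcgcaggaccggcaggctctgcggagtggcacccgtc
Entpd2: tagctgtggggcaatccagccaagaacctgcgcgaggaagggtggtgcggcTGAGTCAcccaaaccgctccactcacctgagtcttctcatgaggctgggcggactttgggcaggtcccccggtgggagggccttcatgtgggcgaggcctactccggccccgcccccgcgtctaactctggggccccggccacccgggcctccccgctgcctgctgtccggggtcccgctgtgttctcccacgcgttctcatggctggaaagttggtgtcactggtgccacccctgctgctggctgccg
Mfap5: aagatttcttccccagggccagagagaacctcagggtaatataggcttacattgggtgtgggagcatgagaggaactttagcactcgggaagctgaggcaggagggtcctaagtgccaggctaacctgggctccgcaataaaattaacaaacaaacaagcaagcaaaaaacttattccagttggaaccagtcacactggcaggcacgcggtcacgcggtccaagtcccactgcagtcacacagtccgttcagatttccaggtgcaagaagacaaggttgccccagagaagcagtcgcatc
Cxcl1: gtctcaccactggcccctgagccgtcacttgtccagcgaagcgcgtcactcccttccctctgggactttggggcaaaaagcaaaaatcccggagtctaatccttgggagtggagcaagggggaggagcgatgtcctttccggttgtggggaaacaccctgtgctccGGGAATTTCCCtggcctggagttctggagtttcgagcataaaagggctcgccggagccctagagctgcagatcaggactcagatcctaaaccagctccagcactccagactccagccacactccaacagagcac
Hmga2: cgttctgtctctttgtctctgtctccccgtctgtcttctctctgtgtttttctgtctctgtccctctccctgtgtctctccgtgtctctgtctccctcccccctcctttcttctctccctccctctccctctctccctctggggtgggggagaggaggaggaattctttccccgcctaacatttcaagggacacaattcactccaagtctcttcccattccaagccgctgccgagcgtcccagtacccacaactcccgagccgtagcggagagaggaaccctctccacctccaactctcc
The Liph promoter (chr11:92537660-92537959, plus strand) held an NF-kB match beginning 64 bases before the start. The Cxcl1 promoter (chr14:17479272-17479571, minus strand) held 2 overlapping NF-kB matches, beginning 84 and 83 bases before the start. The Entpd2 promoter (chr3:28611566-28611865, plus strand) held an AP-1 match beginning 199 bases before the start. Those of Mfap5 (chr4:157399669-157399968, plus strand) and Hmga2 (chr7:57880292-57880591, minus strand) held none of the 5 motifs in this window. Of 27457 promoters of this length 7.60% held the NF-kB match, 7.33% the AP-1 match, 1.91% the CRE, 1.64% the CArG box and 14.3% the TATA box. Of the 10422 promoters of genes with a value on these arrays, from which the classes come, the shares were 9.44% for the NF-kB match, 5.79% for the AP-1 match, 2.90% for the CRE, 1.22% for the CArG box and 9.19% for the TATA box. Among 97 promoters of genes higher at 1 h and back at 24 h, 7 held the NF-kB match, 10 the AP-1 match, 5 the CRE, 14 the TATA box and none the CArG box. Among 65 promoters of genes lower at 1 h and back at 24 h, the NF-kB match was in 9, the AP-1 match in 7, the CRE in 1, the TATA box in 6 and the CArG box in none.

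Of 10643 genes above background on at least 1 of the 2 arrays, 161 (1.51%) were at least 2-fold higher at 24 h, and 179 (1.68%) were 2-fold or more lower. A gene above background on only 1 of the arrays gives a bound, and 30 of the higher and 37 of the lower genes were bounds. Among the 10177 genes above background on both arrays the median difference was 0.02 on the log2 scale, with an SD of 0.41. At least 3-fold higher were 24 of them and at least 3-fold lower 27. With the normexp background correction on the matched scans 71 genes were higher and 52 lower. Where several probes of a called gene were above background, all had 1 sign in 38 of 40 genes. Every probe was at least 2-fold the same way in 26 of the 40. Of 273 called genes above background on both arrays, 236 differed by more than 3 spot errors.

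**Figure D1:**
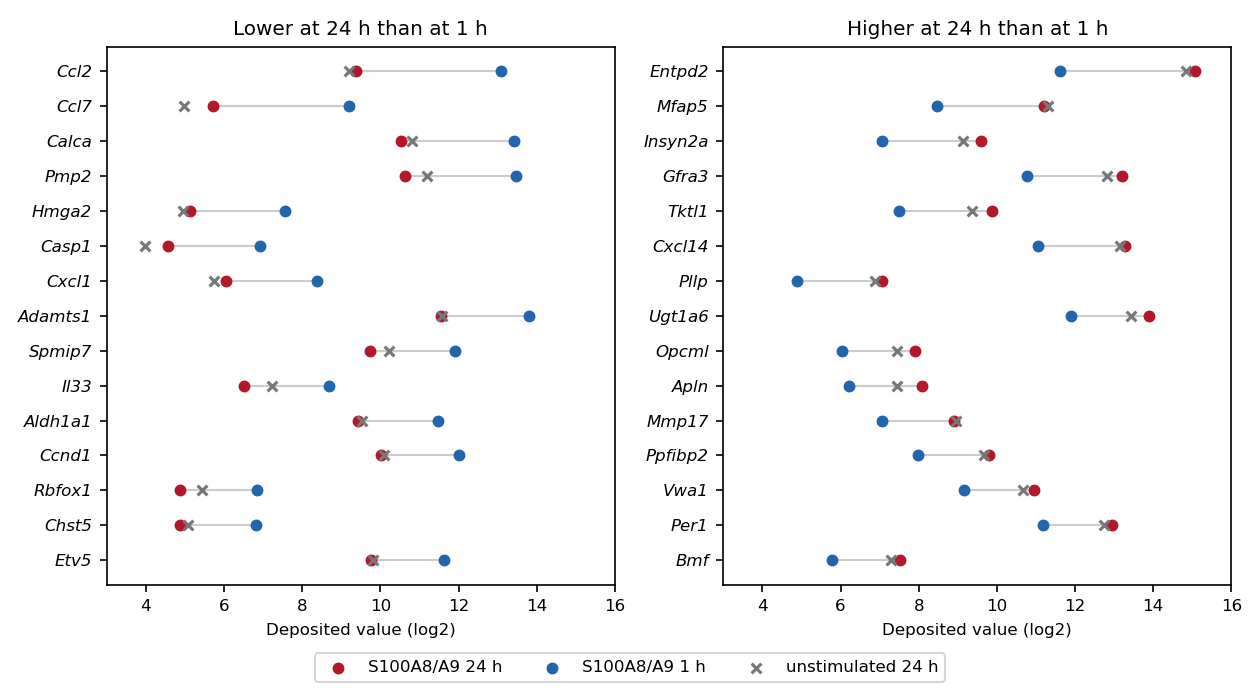
The 15 genes furthest below (left) and the 15 furthest above (right) their 1 h value at 24 h, among genes above background on both arrays. Horizontal axes give the deposited log2 value of 1 array each for S100A8/A9 24 h (red), S100A8/A9 1 h (blue) and the unstimulated 24 h culture (cross), and in each of the 30 genes the cross lies nearer the red than the blue point.

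The monocyte attractants Ccl2 and Ccl7 had the lowest differences among genes above background on both arrays, and the neutrophil attractant Cxcl1 was also lower at 24 h. Ccl2 (NM_031530) had log2 values of 9.38 at 24 h and 13.08 at 1 h, and 9.19 in unstimulated cells. The difference was -3.70 ± 0.03. Its neighbour in function Ccl7 had values of 5.71 at 24 h, 9.19 at 1 h and 4.96 in unstimulated cells, a difference of -3.48 ± 0.24. Cxcl1, a neutrophil attractant, stood at 6.04 at 24 h, 8.37 at 1 h and 5.75 in unstimulated cells, a difference of -2.33 ± 0.11. In all 3 genes the 1 h array alone was high. Ccl11, the eosinophil attractant eotaxin, differed by -1.13 ± 0.19. Cxcl14 went the other way, with 13.28 at 24 h, 11.06 at 1 h and 13.15 in unstimulated cells, a difference of 2.22 ± 0.06. Of 15 measured chemokines, 4 were lower and 1 higher, against 1.68% and 1.51% of all genes, and the median was 0.03. The remaining 16 of 31 with a probe, Ccl3, Ccl4, Ccl20, Cxcl2 and Cxcl10 among them, were not above background on any Schwann cell array.

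Among cytokines and receptors, Il33, Casp1 and Cd14 were at least 2-fold lower at 24 h. Il33, an alarmin of the interleukin 1 family, stood at 6.51 at 24 h, 8.68 at 1 h and 7.22 in unstimulated cells, a difference of -2.17 ± 0.18, so the 24 h array was the lowest. Its receptor Il1rl1 was at 12.18, 13.14 and 11.62 on the same arrays, a difference of -0.96 ± 0.05, short of 2-fold. Casp1, the protease that matures interleukin 1 beta, stood at 4.57 at 24 h and 6.92 at 1 h, a difference of -2.35 ± 0.53, and was not above background in unstimulated cells. Il23a was at least 1.33 higher, since it was above background at 24 h and not at 1 h. Of 15 measured cytokines, 1 was higher and 1 lower, against 1.51% and 1.68% of all genes. Cd14, the co-receptor of TLR4, had values of 5.94 at 24 h, 6.96 at 1 h and 5.99 in unstimulated cells, a difference of -1.02 ± 0.27. Ager differed by 0.14 ± 0.33, less than its spot error. Tlr4 was not above background on any of the 3 arrays, and neither were S100a8 and S100a9, whose proteins had been added. Of 24 measured genes of NF-kB feedback 1 was higher, the co-regulator Bcl3 (1.04 ± 0.03), and none lower, against the same shares of all genes. Of the 23 above background on both arrays 19 lay above 0, with a median of 0.25 against 0.02 over all genes. Of all 10177 genes above background on both arrays, 5262 lay above 0.

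Most genes of MAP kinase feedback lay below 0, while the immediate early genes did not share 1 direction. Fosl1, an AP-1 subunit, stood at 9.43 at 24 h, 11.24 at 1 h and 9.62 in unstimulated cells, a difference of -1.81 ± 0.07. Etv5, a transcription factor induced by growth factor signalling, was at 9.77, 11.62 and 9.81 on the same arrays, a difference of -1.85 ± 0.06. Phlda1 differed by -1.39 ± 0.08. In these genes the 1 h array was again the high one. Among 19 measured MAP kinase feedback genes, 2 were at least 2-fold lower, none higher, and 16 lay below 0, with a median of -0.40. Of all genes 1.68% were at least 2-fold lower. Other immediate early genes were low on the 1 h array. The clock gene Per1 stood at 12.95 at 24 h, 11.18 at 1 h and 12.75 in unstimulated cells, a difference of 1.77 ± 0.06. The stress factor Atf3 was higher at 24 h by 1.55 ± 0.05, Fos by 1.25 ± 0.07 and the growth arrest gene Gadd45a by 1.06 ± 0.06. Of 36 measured immediate early genes 4 were higher and 1 lower, against 1.51% and 1.68% of all genes. The median of the immediate early list was 0.22.

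Cell cycle genes were lower at 24 h throughout the list. Ccnd1, cyclin D1, had values of 10.00 at 24 h, 12.02 at 1 h and 10.08 in unstimulated cells, a difference of -2.02 ± 0.06 and a 4.05-fold lower level at 24 h. Ccne2, a cyclin of entry into DNA replication, differed by -1.22 ± 0.19, the replication licensing factor Cdc6 by -1.05 ± 0.09 and thymidine kinase Tk1 by -1.01 ± 0.06. All 39 measured members lay below 0, between -2.02 and -0.13 with a median of -0.70, against a median of 0.02 over all genes. At least 2-fold lower were these 4, and at least 1.5-fold lower were 23 of the 39, against 6.15% of all genes above background on both arrays. In the histone list 6 of 8 lay below 0, and H2ax, a variant histone of DNA damage signalling, differed by -1.10 ± 0.06. Cell cycle inhibitors did not move together: Cdkn1c was higher by 1.70 ± 0.08, Ccng2 by 1.37 ± 0.04, and Plk3 differed by -1.42 ± 0.19, while Cdkn1a differed by -0.09 ± 0.05. The probes of Cdkn1a did not match each other, and the lowest difference among them was -1.39. The median of the inhibitor list was 0.08.

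**Figure D2:**
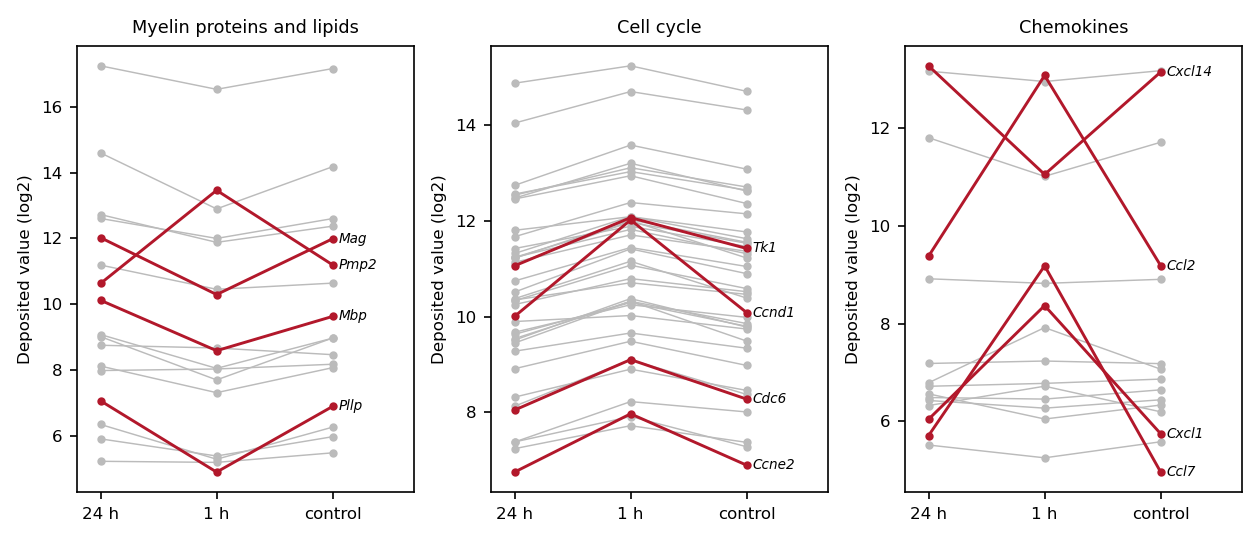
Deposited log2 values (vertical axes) of every myelin, cell cycle and chemokine gene above background at both times, 1 line per gene across the arrays of S100A8/A9 24 h, S100A8/A9 1 h and the unstimulated 24 h culture (control); named genes are red. Mag, Mbp and Pllp dip at 1 h while Pmp2 peaks there, the 39 cell cycle genes peak at 1 h relative to 24 h, and Ccl2, Ccl7 and Cxcl1 peak at 1 h while Cxcl14 dips.

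Myelin genes were mostly higher at 24 h. The adhesion molecule Mag was at 12.03 at 24 h, 10.29 at 1 h and 11.99 in unstimulated cells, a difference of 1.73 ± 0.08, and its probes averaged 2.57. Pllp, plasmolipin, was at 7.06 at 24 h, 4.89 at 1 h and 6.89 in unstimulated cells, a difference of 2.17 ± 0.24. In both genes the 1 h array was the low one. Mbp was higher by 1.54 ± 0.08, the tetraspanin Cd9 by 1.32 ± 0.05, the tight junction protein Cldn19 by 1.06 ± 0.49 and Ugt8, which makes galactosylceramide, by 1.03 ± 0.10. Pmp2, the fatty acid binding protein of peripheral myelin, went the other way, with 10.63 at 24 h, 13.47 at 1 h and 11.19 in unstimulated cells, a difference of -2.84 ± 0.06. Of 18 measured members 7 were called higher and 1 lower, against 1.51% and 1.68% of all genes. The median of the myelin list was 0.81. At least 1.5-fold higher were 12 of the 17 above background on both arrays, against 5.7% of all genes. Cholesterol synthesis, on which myelin membranes draw, had 21 of 26 genes below 0 and a median of -0.29.

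Genes of Schwann cell identity were divided. The low-affinity neurotrophin receptor Ngfr, a marker of immature and repair cells, had values of 14.70 at 24 h, 13.50 at 1 h and 14.73 in unstimulated cells, a difference of 1.21 ± 0.02. Nrg1, a growth factor of the lineage, was at 6.83 at 24 h, 7.92 at 1 h and 6.80 in unstimulated cells, a difference of -1.09 ± 0.19. Both were close to the unstimulated culture at 24 h. Of 29 lineage genes measured 1 was higher and 1 lower, against 1.51% and 1.68% of all genes. The median of the lineage list was -0.11. Sox10, the master regulator of the lineage, differed by 0.48 ± 0.05, and S100b by -0.10 ± 0.05. Gfra3, the receptor of the neurotrophic factor artemin, was higher by 2.43 ± 0.06, with 13.21 at 24 h, 10.77 at 1 h and 12.83 in unstimulated cells.

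Among genes above background on both arrays, the furthest higher at 24 h was Entpd2 (NM_172030), an enzyme on the cell surface that degrades extracellular ATP. It stood at 15.07 at 24 h, 11.62 at 1 h and 14.84 in unstimulated cells, a difference of 3.45 ± 0.08 or a 10.9-fold higher level at 24 h. Mfap5, a microfibril protein of the matrix and also a fibroblast marker, followed with 11.20 at 24 h, 8.46 at 1 h and 11.31 in unstimulated cells, a difference of 2.74 ± 0.08. The other matrix genes split: the integrin Itgb4 (1.55 ± 0.06) and the collagen Col6a2 (1.16 ± 0.06) were higher, and versican, Vcan (-1.27 ± 0.06), and periostin, Postn (-1.02 ± 0.05), lower. Of 13 measured fibroblast markers Mfap5 was higher and Postn lower, against 1.51% and 1.68% of all genes. The list's summed log2 level was 147.8 at 24 h, 141.6 at 1 h and 146.0 in unstimulated cells. That sum takes in all 15 with a probe, Dcn and Lum among them, which were not above background. The part of fibroblasts in these differences was not tested. Adamts1, a protease that cleaves versican, stood at 11.56 at 24 h, 13.81 at 1 h and 11.59 in unstimulated cells, a difference of -2.25 ± 0.02. Calca, which encodes calcitonin and the neuropeptide CGRP, was at 10.52 at 24 h, 13.41 at 1 h and 10.81 in unstimulated cells, a difference of -2.89 ± 0.06. Hmga2, a chromatin protein of dividing progenitors, differed by -2.45 ± 0.51 and Aldh1a1, which makes retinoic acid, by -2.03 ± 0.07. Liph, a lipase, was above background at 1 h only, at 8.70, so its difference was at most -4.29.

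Among complement genes, C1s, C1qb and C1r were at least 2-fold higher at 24 h. The protease C1s stood at 7.98 at 24 h, 6.49 at 1 h and 7.82 in unstimulated cells, a difference of 1.49 ± 0.21, and C1r differed by 1.04 ± 0.04. C1qb was at 14.27 at 24 h, 13.07 at 1 h and 14.14 in unstimulated cells. Of 13 measured complement genes these 3 were higher and none lower, where 1.51% of all genes were higher, and the median was 0.11. C1qb stood alone among its partners, since C1qa and C1qc were not above background on any of the 3 arrays. C1qb is also a macrophage marker: of 11 measured markers of that list 2 were higher and 1 lower, against 1.51% and 1.68% of all genes. The summed log2 level of all 19 of that list, those not above background included, was 98.6 at 24 h, 95.6 at 1 h and 98.4 in unstimulated cells. Over the marker lists of neutrophils, lymphocytes, endothelium, neurons, skeletal muscle, adipocytes and erythroid cells, the neutrophil gene Il1r2 (-1.03 ± 0.54) and the muscle gene Myh1 (-1.10 ± 0.19) were lower and no gene was at least 2-fold higher. All 8 endothelial and mural markers above background on both arrays lay above 0, with a median of 0.42. The summed log2 level of that list was 83.8 at 24 h, 76.8 at 1 h and 81.0 in unstimulated cells. That sum takes in all 14 with a probe, of which 5 were not above background on any of the 3 arrays. The 4 adipocyte markers had a median of 0.56. The part of such cells in the results was not tested. Among 25 interferon response genes 2 were lower, Usp18 (-1.39 ± 0.52) and Isg15 (at most -1.09), and none higher. Of all genes 1.68% were lower and 1.51% higher. The other probe of Usp18 differed by -0.87, short of 2-fold. Ribosomal protein, heat shock, hypoxia and glycolysis, antioxidant, MHC class II, Notch, Wnt and JAK-STAT genes had no member 2-fold apart, and the medians of these lists lay between -0.12 and 0.15.

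**Figure D3:**
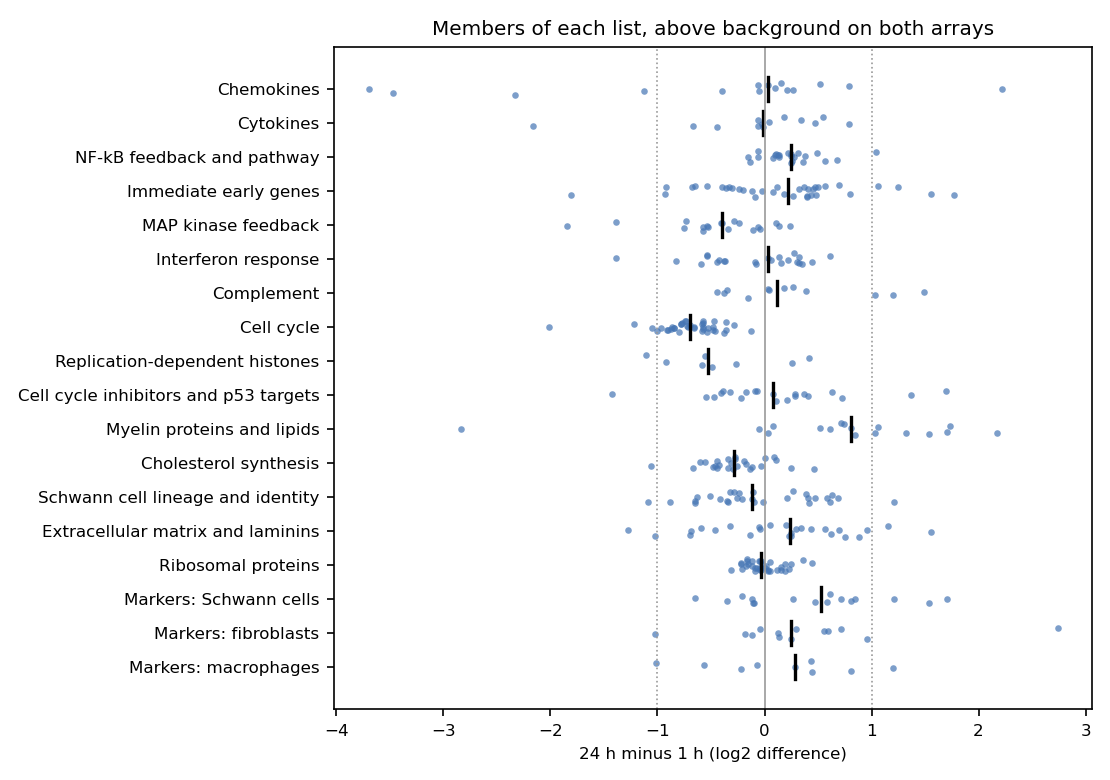
Log2 difference of 24 h minus 1 h (horizontal axis) for each member of 18 gene lists that was above background on both arrays; each point is a gene, black bars are medians and dotted lines mark 2-fold. The cell cycle list lies wholly below 0 (median -0.70) and most myelin genes lie above it (median 0.81), with Pmp2 far to the left.

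Set against the unstimulated 24 h culture, most genes that differed at 1 h were near its level at 24 h. The 1 h array enters this comparison as well as the last, so both read the same 1 h values. Against unstimulated cells, 150 genes (1.4% of 10690) were at least 2-fold higher at 1 h, and 119 (1.11%) were that far lower. At 24 h, 31 genes (0.289% of 10728) were this far above unstimulated cells and 32 (0.298%) below them. Genes in general lay close to unstimulated cells at 24 h. Among the 10376 above background on both of these arrays, the median difference was 0.00 on the log2 scale, with an SD of 0.23. Of the 150 genes higher at 1 h, 97 were within 1.5-fold of the unstimulated value at 24 h, and 27 more were not above background on either array of 24 h. Together these 124 genes made 82.7% of the 150. Another 8 stood 1.5- to 2-fold higher, 2 stayed at least 2-fold higher, 2 were at least 1.5-fold lower, and for 14 a bound did not place them. Of the 119 genes lower at 1 h, 89 (74.8%) were within 1.5-fold at 24 h, 6 were 1.5- to 2-fold lower, 23 at least 2-fold lower and 1 at least 1.5-fold higher. The share of all genes within 1.5-fold at 24 h was not counted, so 82.7% and 74.8% are not read as particular to these genes.

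**Figure D4:**
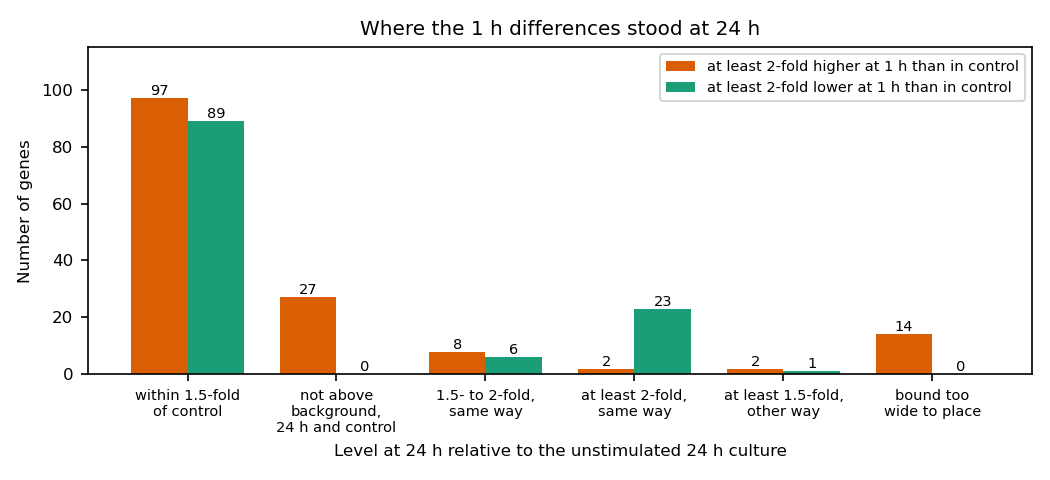
Number of genes (vertical axis) by their level at 24 h relative to the unstimulated 24 h culture, for the 150 genes at least 2-fold higher (orange) and the 119 at least 2-fold lower (green) at 1 h than in that culture. The 97 and 89 genes within 1.5-fold make the tallest bars, and 23 genes lower at 1 h were also at least 2-fold lower at 24 h.

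Most of the genes called between the times were away from the unstimulated culture at 1 h rather than at 24 h. Of the 179 genes lower at 24 h than at 1 h, 114 were at least 2-fold higher at 1 h than in unstimulated cells, 5 at least 2-fold lower at 24 h than in them, and 60 neither. Of the 161 higher genes, 82 were at least 2-fold lower at 1 h, 20 at least 2-fold higher at 24 h, and 59 neither. Ccl7 was among the genes partly back, still 0.75 above the unstimulated value on the log2 scale. Il33 and the keratin Krt18 passed below that value by 24 h. Apln, the ligand of the apelin receptor, passed above it, with 8.08 at 24 h, 6.21 at 1 h and 7.46 in unstimulated cells. Upk3bl1 and Tmem116 were the 2 genes higher than in unstimulated cells at both times, by at least 1.24 and 1.12 at 24 h, since neither was above background in unstimulated cells. Both were dim, and the spot error of their difference between the times was 0.96.

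Some genes low at both times rest on the unstimulated array alone. Of the 23 genes at least 2-fold lower at 24 h and at 1 h, 9 were above background in unstimulated cells alone, and 10 were above background on all 3 arrays. Proca1 was not above background at 24 h or at 1 h and stood at 8.97 in unstimulated cells, with differences from unstimulated cells of at most -4.55 at 24 h and -4.30 at 1 h, and Upk2, a urothelial protein, showed the same pattern from 7.59. Late genes, within 1.5-fold of the unstimulated value at 1 h and 2-fold from it at 24 h, numbered 23 higher and 7 lower. Of the 23, 11 were above background on the 24 h array alone, among them Cabcoco1 (8.05) and Fbxl13 (6.56). Spry3, of the Sprouty family of signalling inhibitors, was above background on all 3 arrays, at 8.10 at 24 h, 6.39 at 1 h and 6.04 in unstimulated cells. Rfx5, which activates MHC class II genes, stood at 6.34 at 24 h, 5.03 at 1 h and 4.90 in unstimulated cells. Its 24 h difference from unstimulated cells was 1.44 ± 0.62. The lowest values above background were 4.67 at 1 h and 4.28 in unstimulated cells, so Rfx5 was dim on both arrays. Of the late lower genes, the calcium-activated potassium channel Kcnma1 stood at 7.96 at 24 h, 9.39 at 1 h and 9.40 in unstimulated cells, but the mean over its probes differed between the times by -0.05 only. Znrf4 was at 7.54, 9.11 and 9.10 on the same arrays.

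The injured nerve gives a readout of these genes on other arrays, each a pool of 3 Sprague-Dawley animals at day 1 after transection, with 1 array per segment and no replicate. The contralateral nerve was the right sciatic nerve, which its label names as a control and PBS injection site. Of 161 genes higher at 24 h than at 1 h, 146 were measured in the distal nerve and 73 of them (50.0%) were at least 2-fold lower there than in the contralateral nerve, where 14.1% of all genes were. At least 2-fold higher in the distal nerve were 18 of the 146 (12.3%), against 12.7% of all genes. Of the 179 lower genes, 151 were measured there, with 50 (33.1%) at least 2-fold higher there and 35 (23.2%) lower by that much. In the proximal nerve 63 of 149 higher genes (42.3%) were at least 2-fold lower than in the contralateral nerve, against 11.7% of all genes. At least 2-fold higher there were 16 of the 149, against 10.5% of all genes. Of 152 genes lower at 24 h than at 1 h, 51 (33.6%) were at least 2-fold higher in the proximal nerve and 26 (17.1%) lower by that much. The nerve holds many cell types, so in it fewer cells of a type and less RNA per cell cannot be told apart.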

How the data were processed

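RNA was labelled with Cy3 and hybridised to 1-colour Agilent rat arrays. Expression was taken as log2 values from the table that the authors deposited. Its 8 columns have equal medians and upper quartiles, and lower quartiles of 5.42 to 5.43, which is close to what quantile normalization leaves; neither labels nor headers record it, and its offset and its choice of 24894 probes are unknown. The scanner files hold spot intensity, which the authors' scanner software had background-subtracted. That software was Feature Extraction, in version 10.7.3.1 by the headers and 10.5 by the submitters' processing notes. For each column, flags and spot errors were read off the scan of the same rank order. The headers name build rn4. Names came from a GRCr8 RefSeq table: 15213 of the 24894 probes had a symbol, giving 12765 genes, and of several probes the one with the highest average across arrays stood for the gene.

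A gene above background on 1 array only was set against the higher of its dim value and that array's lowest value above background, and gives a bound. Calls are at least 2-fold; back means within 1.5-fold. No test was possible with 1 array per group. The calling steps were checked on simulated data in which every changed gene was above background on all arrays, so the handling of bounds was not checked. Named genes are the 15 furthest each way, up to 4 members furthest apart per list, and up to 8 per class; a gene outside this rule is a further member of a list, given to complete a count and chosen after its value was seen. Some members of the lists are counted but not reported here by name. The comparison, lists and rules were chosen with earlier results of these data known. Alternatives were normexp with offset 50 (limma 3.58.1, R 4.3.3), scaling to the 75th percentile, the mean of a gene's probes, other background filters and the scans as recorded. Python 3.11.15, pandas 2.3.3 and numpy 2.4.6 were used.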

Additional observations from a re-analysis of the deposited data

How the results depend on the processing

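With 1 array per group the depth of the evidence is that of the signal: dim genes are held by bounds, and counts move with how they are treated. With normexp, 71 genes were at least 2-fold higher and 52 lower at 24 h than at 1 h, 42 genes higher and 43 lower at 1 h were back at 24 h, and late genes numbered 5 higher and 2 lower. With no filter and no floor these counts were 392, 411, 214, 174, 105 and 66. With every array required to be above background, late genes numbered 12 higher and 4 lower, and with scaling of matched scans to their 75th percentile 13 late genes were lower. With the scans as recorded under the samples, 2189 genes were higher and 1921 lower. By rank, the scan filed under 24 h matched the column of the C-level control spinal cord. The scan filed under 1 h matched the column of the contralateral nerve. Whether the headings or the filing are right was not tested. Of 88 named genes at least 2-fold apart, 52 kept that call with normexp, 88 at the 75th percentile, 86 with the mean of probes and 88 with no filter. All 72 of those above background on every array compared kept it under that filter. Among 196 named genes 1 changed sign with normexp and none at the 75th percentile or with no filter.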

Other observations

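Other groups of genes at least 2-fold apart between the times, picked after their values were seen, were these. Among axon guidance genes, Sema3b was higher at 24 h by 1.55 and Sema4f by 1.19 on the log2 scale, the netrin receptor Unc5a by 1.25 and the ephrin Efna1 by 1.49, while the Slit receptor Robo2 differed by -1.17. The neurotrophin receptor Ntrk3 was higher by 1.51. Of the insulin-like growth factor system, Igf1 (-1.04), Igfbp4 (-1.04) and Igfbp5 (-1.15) were lower at 24 h. Higher were Txnip, an inhibitor of thioredoxin (1.36) and the transcription factor Klf15 (1.33).

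Picked in the same way, the secreted ribonucleases Ang2 (-1.35) and Rnase4 (-1.10) were lower at 24 h. So were Clec2d2l2 (-1.80) and Clec2d2l3 (-1.24), members of 1 lectin family whose near-identical copies may share signal between probes. The death receptor Fas differed by -1.24. Each value is from 1 array per time.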
